A study of Mus musculus with 6 samples.

Results

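The SoxF and vein identity transcription factors examined here are 8 genes, Sox7, Sox17, Sox18, Sox4, Prox1, Nr2f1, Nr2f2 and Hhex, chosen by symbol from the 54429 genes of the deposited count table. All 8 were listed, and 7 of them were among the 16065 genes that passed the filter on low counts, Prox1 being the exception. Their transcripts were measured by ribodepleted RNA-seq in primary aortic EC of wild-type adult C57BL/6 mice, in 3 libraries from cells transduced with a lentiviral Meis1-OE vector and 3 from cells given the YFP-CTRL vector. EC were plated at 100000 per well, given the vector for 48 h, isolated at 72 h by flow cytometry (YFP+CD31+VEC+) and grown to confluency, so that every library passed through a selection and a culture step. RNA came from 300000 cells. The EC were purchased, and the samples are called independent replicates with no animals named, so p-values measure the spread between these libraries, which may be technical. The comparison asks how forced expression of Meis1, a TALE homeobox factor, changes these regulators of arterial, venous and lymphatic identity. Libraries are named by their letters in the deposited table, and values of 3 libraries stand in the order A, B, C.

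Sox7, Sox17 and Sox18 form the SoxF group of high mobility group box factors. In vessels they act downstream of VEGF signalling and upstream of Notch components, and Sox17 in particular marks arterial endothelium and takes part in the formation of hemogenic endothelium. Nr2f2 encodes COUP-TFII, an orphan nuclear receptor known for maintaining vein identity by restraining Notch signalling, and Nr2f1 encodes its close relative COUP-TFI. Prox1, the master regulator of lymphatic endothelium, is switched on in vein endothelium by Sox18 together with COUP-TFII. Hhex is a homeobox factor of early endothelial and blood precursors, and Sox4 is a SoxC factor found in many progenitor cells.

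Totals ran from 34176592 to 47956569 counts per library. Meis1 was counted 135325 to 157828 times in Meis1-OE EC and 39 to 85 times in YFP-CTRL EC, and reads of the vector and of the endogenous gene were not separated. The endothelial identity of the cells was checked on markers, which were present in both groups. The 8 endothelial markers summed to between 3437 and 4283 CPM in Meis1-OE EC and to between 4429 and 6116 CPM in YFP-CTRL EC, where CPM are counts scaled to library size with TMM factors. Of these markers, Pecam1, which encodes CD31, had a log2 fold change of -0.11 (edgeR adjusted p = 0.723) and Cdh5, which encodes VEC, one of -0.70 (edgeR adjusted p = 0.0535). Cldn5, a tight junction gene named after its value was seen, was the marker past the threshold, higher at 1.81 (edgeR adjusted p = 0.0398), and it lost the call without YFP-CTRL B (edgeR adjusted p = 0.130) and without Meis1-OE A, B or C (0.0944, 0.153 and 0.160). Adjusted for the proliferation score described next, Cldn5 was at 1.08 (edgeR adjusted p = 0.111). Kdr, a marker also named after its value was seen, went the other way at -1.23 without overlap between the groups (edgeR adjusted p = 0.0504). Of the 8 markers, 4 had positive and 4 had negative log2 fold changes. Macrophage markers summed to at most 1.45 CPM in any library, with C1qa, C1qb and Tyrobp at 0 throughout. Fibroblast and smooth muscle markers summed to between 13.1 and 15.6 CPM in Meis1-OE EC and to between 33.97 and 51.9 CPM in YFP-CTRL EC. Of these, Pdgfra was at 11.7 to 11.9 CPM in Meis1-OE EC and at 15.6 to 49.1 CPM in YFP-CTRL EC. Acta2 reached 19.9 CPM in YFP-CTRL C. Col1a1, Col1a2, Col3a1, Tagln, Myh11 and Cnn1 did not pass the filter on low counts, with at most 29 counts in any library. Whether such cells were present, and their part in any result, was not tested. Transcripts of proliferation genes differed between the YFP-CTRL libraries. The proliferation score, the mean log2(CPM + 1) of 15 genes of S, G2 and M phase, was 4.33, 5.35 and 6.54 in YFP-CTRL EC, against 6.60, 6.59 and 6.62 in Meis1-OE EC. Mki67, a marker of dividing cells, is part of this score. It was at 63.8, 205 and 589 CPM in YFP-CTRL EC and between 628 and 672 CPM in Meis1-OE EC. YFP-CTRL C thus had a score close to that of the Meis1-OE libraries, while YFP-CTRL A and B lay lower.

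Among the 7 tested factors, 0 passed an adjusted p of 0.05 in edgeR's quasi-likelihood test after Benjamini-Hochberg adjustment over all genes, where 6.87% of all tested genes did. At an unadjusted p of 0.05, 2 of the 7 passed, Sox17 upward and Sox4 downward, against 26.2% of all tested genes. Sox17 and Sox4 were also the 2 factors whose Meis1-OE and YFP-CTRL libraries did not overlap, as in 33.1% of all tested genes. DESeq2 called 1 factor, Sox17, where it called 12.4% of the genes with an adjusted p. Sox17 was likewise the 1 factor called on library totals (7.64% of all tested genes), with no filter on low counts (3.77%), with the column letter as a block (4.56%) and at an adjusted p under 0.1 (13.8%). Leaving out YFP-CTRL B gave 0 called factors (1.64% of all tested genes), as did leaving out Meis1-OE A (2.43%), B (0.798%) or C (0.875%). Leaving out YFP-CTRL A gave 2 (Sox17 and Sox7, 6.36%) and leaving out YFP-CTRL C gave 3 (Sox17, Sox4 and Hhex, 31.7%). With the proliferation score as covariate, 1 was called (Sox7, 4.15%). The 7 log2 fold changes had a median of 0.06, beside a median of 0.01 over all tested genes.

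**Figure D1:**
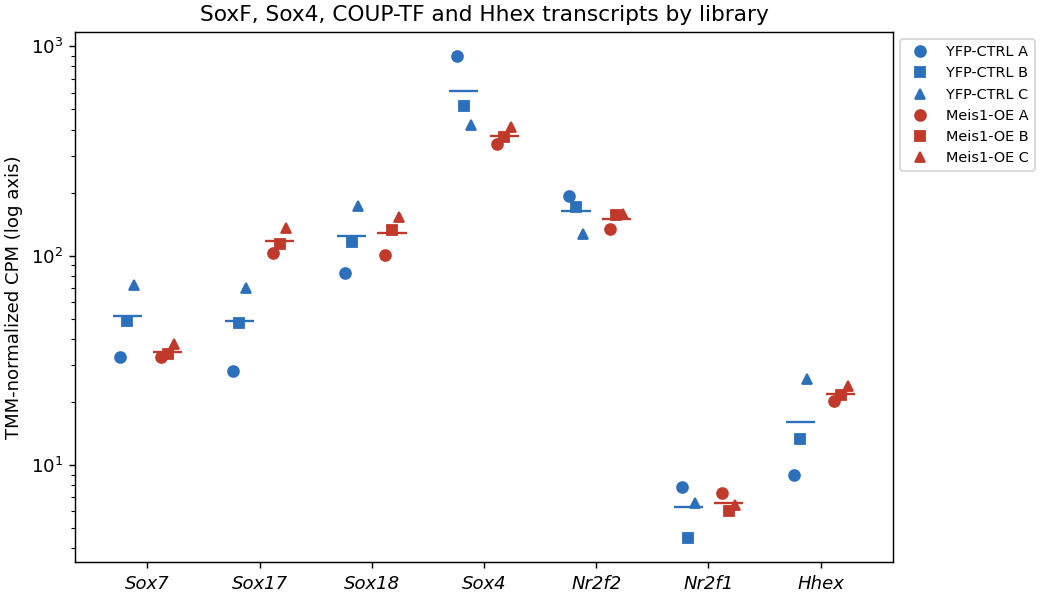
TMM-normalized CPM on a log axis for each of the 7 tested factors in every library, with YFP-CTRL in blue, Meis1-OE in red, marker shapes for the letters A, B and C and horizontal lines at group means. Sox17 lay between 103 and 136 CPM in Meis1-OE EC, above its highest YFP-CTRL value of 70.2 CPM, and Sox4 lay below all its YFP-CTRL values.

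Sox17 was the factor with the largest difference. It lies at chr1:4490928-4497426 (RefSeq, build GRCm38.p6, the assembly of mm10). Its level was 103, 114 and 136 CPM in Meis1-OE EC and 28.0, 47.8 and 70.2 CPM in YFP-CTRL EC. The lowest Meis1-OE library therefore exceeded the highest YFP-CTRL library, and the YFP-CTRL libraries spread 2.51-fold among themselves. The means were 118 ± 17.0 and 48.7 ± 21.1 CPM (SD, n = 3 each), a ratio of 2.42. The log2 fold change was 1.27 (standard error 0.31, 95% interval 0.545 to 1.999), and the adjusted p from edgeR was 0.0549. The position of this value beside the threshold depended on the libraries and the settings. The adjusted p was 0.00199 with DESeq2, 0.0330 on library totals and 0.0376 with no filter on low counts. It was 0.00505 without YFP-CTRL C, with a log2 fold change of 1.61 (where 31.7% of all tested genes passed), and 0.0390 without YFP-CTRL A, with a log2 fold change of 0.98. It was 0.178 without YFP-CTRL B and 0.132, 0.191 and 0.206 without Meis1-OE A, B and C. Adjusted for the score of each library, the log2 fold change was 0.66 (edgeR adjusted p = 0.0840). Set against YFP-CTRL C alone, the control with the closest score, it was 0.75 (1 library in the control arm, assumed to vary as the Meis1-OE libraries do). The Meis1-OE scores lay between 6.59 and 6.62, so the slope on the score came almost only from the YFP-CTRL libraries. The adjusted fit and the fit against YFP-CTRL C alone are thus not separate checks, here or for the other factors.

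Sox7, at chr14:63943706-63950732, had a difference of the opposite sign. It was at 32.8, 33.9 and 37.6 CPM in Meis1-OE EC and at 32.9, 48.5 and 72.2 CPM in YFP-CTRL EC. YFP-CTRL A lay within the Meis1-OE range, while B and C lay above it. The log2 fold change was -0.56 (standard error 0.26, 95% interval -1.18 to 0.06, edgeR adjusted p = 0.230). The size of the difference depended on which controls were used. It was -0.24 without YFP-CTRL C (edgeR adjusted p = 0.353), -0.81 without YFP-CTRL A (edgeR adjusted p = 0.0474, where 6.36% of all tested genes passed) and -1.05 against YFP-CTRL C alone (edgeR adjusted p = 0.00305, where 11% passed). Adjusted for the score, it was -1.10 (edgeR adjusted p = 0.00717, where 4.15% passed).

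Sox18, at chr2:181669837-181671640, is the SoxF factor best known from lymphatic development. It was at 101, 132 and 153 CPM in Meis1-OE EC and at 82.5, 116 and 172 CPM in YFP-CTRL EC, so that the Meis1-OE values fell inside the control range. The log2 fold change was 0.06 (standard error 0.28, 95% interval -0.59 to 0.71, edgeR adjusted p = 0.919). Its sign was negative without YFP-CTRL A (-0.18), without Meis1-OE C (-0.08), against YFP-CTRL C alone (-0.41) and after adjustment for the score (-0.45), and it did not pass in any of these fits.

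The make-up of the SoxF group lay apart between Meis1-OE and YFP-CTRL EC. Within each library, Sox17 made up 43.4%, 40.7% and 41.6% of the summed Sox7, Sox17 and Sox18 counts in Meis1-OE EC, and 19.5%, 22.5% and 22.3% in YFP-CTRL EC. Shares within a library do not depend on the library scaling. The 95% Wilson intervals, which cover counting error only, ran from 42.5 to 44.4, 39.8 to 41.5 and 40.9 to 42.4 in Meis1-OE EC and from 18.4 to 20.7, 21.6 to 23.4 and 21.6 to 23.0 in YFP-CTRL EC. The mean share was thus 41.9 ± 1.40% against 21.4 ± 1.67% (SD, n = 3 each), a difference of 20.5 percentage points.

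The Sox7 share was lower in Meis1-OE EC. It was 13.9%, 12.1% and 11.5% in Meis1-OE EC, and 23.0%, 22.8% and 23.0% in YFP-CTRL EC, a difference of -10.4 percentage points. Divided by exon length, the Sox7 share was 8.39% against 14.4%, a difference of -6.05 percentage points, and the Sox17 share 29.4% against 14.1%. The SD of the Sox7 share of the counts, not divided by length, was 0.0834 percentage points in YFP-CTRL EC, although the Sox7 level itself spread 2.19-fold over the same libraries. Sox18 held 42.7% to 47.2% of the SoxF counts in Meis1-OE EC and 54.7% to 57.5% in YFP-CTRL EC. The count of Sox17 was 3.13, 3.36 and 3.62 times that of Sox7 in Meis1-OE EC, and 0.851, 0.986 and 0.972 times in YFP-CTRL EC. The 3 shares of a library add up to a fixed whole, so a higher Sox17 share lowers the others, and they are not separate results. The Sox18 share fell although the Sox18 level did not separate the groups. Without Sox17, the count of Sox7 was 0.326, 0.256 and 0.246 times that of Sox18 in Meis1-OE EC. In YFP-CTRL EC it was 0.399, 0.417 and 0.420 times. None of these shares and ratios overlapped between the groups, where the levels of 33.1% of all tested genes did not overlap. No such rate was computed for shares or ratios. The ratio of Hhex to Sox18 did not overlap either, although neither gene separated the groups by itself. In YFP-CTRL C, the control with a score like that of Meis1-OE EC, the Sox17 share was 22.3%. The part of proliferation in the shares was not tested. An exact two-sided permutation test of 3 libraries against 3 cannot go below p = 0.1, so the shares are given without a test.

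**Figure D2:**
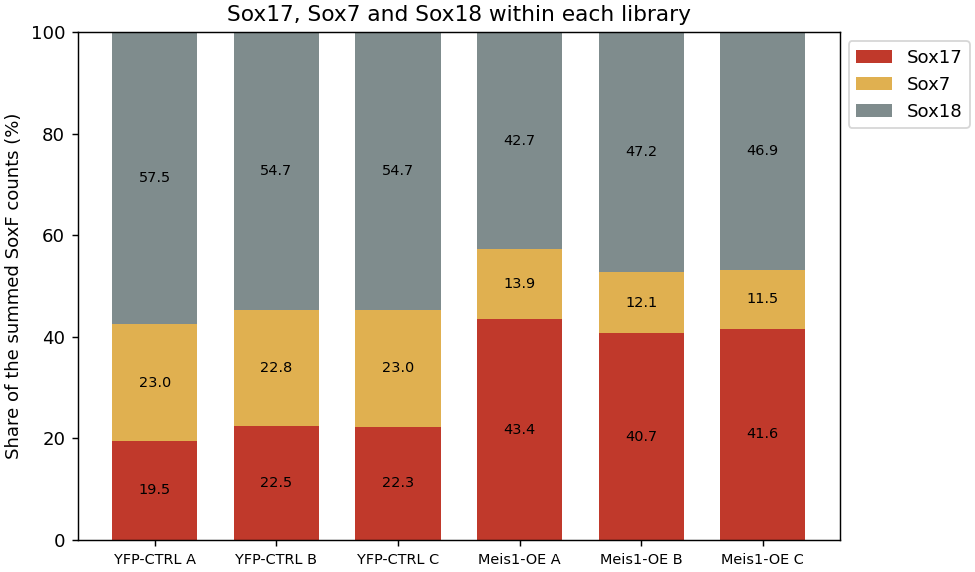
Stacked bars of the share (%) of Sox17, Sox7 and Sox18 in their summed counts for each of the 6 libraries, with the share printed in each segment. The Sox17 segment held 40.7% to 43.4% in Meis1-OE EC and 19.5% to 22.5% in YFP-CTRL EC.

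Sox4, at chr13:28948919-28953699, was the most highly counted of these factors. It was at 342, 368 and 410 CPM in Meis1-OE EC and at 894, 519 and 418 CPM in YFP-CTRL EC. The groups did not overlap, but YFP-CTRL C stood just above Meis1-OE C. The means were 373 ± 34.03 and 611 ± 251 CPM (SD, n = 3 each), and the log2 fold change was -0.71 (standard error 0.27, 95% interval -1.34 to -0.08, edgeR adjusted p = 0.151). Without YFP-CTRL C it was -0.93 (edgeR adjusted p = 0.0183, where 31.7% of all tested genes passed). Without YFP-CTRL A it was -0.35 (edgeR adjusted p = 0.186), and after adjustment for the proliferation score -0.06 (edgeR adjusted p = 0.888). The Sox4 gene overlaps the noncoding gene Gm46405 in the RefSeq annotation, and whether counting used strand is not given in the sources used here, so reads of the overlap cannot be told apart.

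The 250 bases before the RefSeq start of Sox4 (chr13:28953700-28953949, minus strand, GRCm38.p6) are shown because Sox4 separated the groups downward. Capitals mark the letters AGGTCA, the half-site of nuclear receptors such as COUP-TF, which 14.0% of 32851 windows of this length hold on either strand.
Sox4: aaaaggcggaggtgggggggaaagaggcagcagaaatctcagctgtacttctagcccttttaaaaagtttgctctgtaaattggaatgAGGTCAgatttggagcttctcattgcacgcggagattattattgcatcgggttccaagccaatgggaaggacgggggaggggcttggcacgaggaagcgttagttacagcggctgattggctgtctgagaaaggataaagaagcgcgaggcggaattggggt
The same window of Sox4 holds neither TGACAG, the core letters bound by Meis factors (15.9% of all windows), nor the Sox letters AACAAT (9.42%) or ACAAAG (16.5%), nor TGATTNAT, the letters of a Pbx and Hox pair (2.82%). Both strands were searched. Windows were present for 5 of the 8 factors, 7 windows in all, and TGACAG was in 0 of the 7. A lack of these letters says nothing about binding outside the windows.

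Nr2f2 and Nr2f1 did not separate the groups. Nr2f2, at chr7:70351946-70366746, was at 134, 156 and 158 CPM in Meis1-OE EC and at 192, 171 and 127 CPM in YFP-CTRL EC. The control values enclosed all Meis1-OE values. The log2 fold change of -0.12 had a 95% interval from -0.52 to 0.27 (edgeR adjusted p = 0.679). On library totals it was 0.01, where the median of all tested genes was 0.15, and against YFP-CTRL C alone it was 0.24 (edgeR adjusted p = 0.184). Adjusted for the score, it was 0.22, and without YFP-CTRL C it was -0.29 (edgeR adjusted p = 0.0695).

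Nr2f1, at chr13:78188971-78198873, was far less abundant, at 7.31, 6.06 and 6.46 CPM in Meis1-OE EC and 7.86, 4.49 and 6.58 CPM in YFP-CTRL EC. The 2 groups covered much the same range. The log2 fold change was 0.07 (standard error 0.23, 95% interval -0.47 to 0.60, edgeR adjusted p = 0.882), and its sign was negative without YFP-CTRL B (-0.12) and without Meis1-OE A (-0.01). The noncoding genes A830082K12Rik and B130024G19Rik overlap Nr2f1 and Nr2f2. They were counted 116 to 158 and 111 to 197 times per library, with log2 fold changes of 0.09 and 0.12 (edgeR adjusted p = 0.820 and 0.783), and reads in the overlaps could have been given to either gene.

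The ratio of Nr2f2 to Sox17 separated the groups, as Sox17 did by itself, while Nr2f2 by itself did not. The ratio is therefore no separate result for Nr2f2. The count of Nr2f2 was 1.304, 1.37 and 1.16 times that of Sox17 in Meis1-OE EC, and 6.84, 3.57 and 1.81 times in YFP-CTRL EC. The groups did not overlap, and within YFP-CTRL the ratio was lowest in library C. The upstream window of Nr2f2 (chr7:70366747-70366996, minus strand, GRCm38.p6) is shown for the vein factor whose level stayed inside the control range, and it holds none of the 5 motifs searched.
Nr2f2: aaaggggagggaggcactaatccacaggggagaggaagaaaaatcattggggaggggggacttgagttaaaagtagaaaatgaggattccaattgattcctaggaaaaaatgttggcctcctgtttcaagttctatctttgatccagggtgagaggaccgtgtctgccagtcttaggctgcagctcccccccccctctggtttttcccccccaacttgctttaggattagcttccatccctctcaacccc

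Hhex, at chr19:37434841-37440731, was at 20.3, 21.7 and 23.8 CPM in Meis1-OE EC and at 8.95, 13.3 and 25.8 CPM in YFP-CTRL EC. Meis1-OE EC lay above YFP-CTRL A and B and below YFP-CTRL C. The control spread of 2.89-fold was the widest of the 7 factors, and Hhex differed between YFP-CTRL libraries in the order of their proliferation scores. The log2 fold change was 0.45 (standard error 0.35, 95% interval -0.38 to 1.27, edgeR adjusted p = 0.455). It was 0.96 without YFP-CTRL C (edgeR adjusted p = 0.0122, where 31.7% of all tested genes passed), -0.23 against YFP-CTRL C alone (edgeR adjusted p = 0.239) and -0.24 after adjustment for the score (edgeR adjusted p = 0.397). The window upstream of Hhex (chr19:37434591-37434840, plus strand, GRCm38.p6) is shown for the factor with the widest control spread. G and C make up 76.0% of its bases, where the median over all windows was 52.4%, and none of the 5 motifs is in it.
Hhex: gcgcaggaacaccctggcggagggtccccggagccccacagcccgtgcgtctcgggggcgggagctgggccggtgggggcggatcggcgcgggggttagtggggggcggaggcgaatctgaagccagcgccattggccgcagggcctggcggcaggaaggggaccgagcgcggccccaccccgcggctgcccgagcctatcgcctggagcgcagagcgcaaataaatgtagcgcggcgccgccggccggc

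Prox1, at chr1:190118035-190170827, had 2 counts in Meis1-OE A and 0 counts in each of the other 5 libraries. These values are within the floor of 3 counts, which is 0.0648 to 0.0883 CPM in these libraries, so a level below that floor was not detectable at this depth. The overlapping noncoding gene Prox1os had 0 counts throughout. Prox1 transcripts were thus at or below the floor in EC that carried both Sox18 and Nr2f2 above 80 CPM in every library.

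Levels of different factors can be compared only per length of transcript. On CPM per kilobase of merged exon in YFP-CTRL EC, Sox4 had the highest mean at 127, followed by Sox18 at 76.3, Nr2f2 at 33.5, Sox7 at 15.5, Sox17 at 15.4, Hhex at 4.18 and Nr2f1 at 1.33. Sox4 and Sox18 overlapped over the control libraries, as did Sox7 and Sox17, and the other neighbours did not. In Meis1-OE EC the order of mean levels was Sox18 at 79.5, Sox4 at 77.8, Sox17 at 37.3, Nr2f2 at 30.8, Sox7 at 10.6, Hhex at 5.71 and Nr2f1 at 1.39 CPM per kilobase. Sox18 and Sox4 overlapped there, and so did Sox17 and Nr2f2, whose closest libraries were at 32.5 and 32.6. Sox17 thus stood beside Sox7 in YFP-CTRL EC and beside Nr2f2 in Meis1-OE EC.

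The 7 tested factors varied more between YFP-CTRL libraries than between Meis1-OE libraries. The highest library was 1.51 to 2.89 times the lowest in YFP-CTRL EC and 1.15 to 1.52 times in Meis1-OE EC. Over tested genes with a mean of at least 5 CPM, the median of this ratio was 1.37 in YFP-CTRL EC (10219 genes) and 1.12 in Meis1-OE EC (10221 genes). Sox7, Sox17, Sox18 and Hhex were lowest in YFP-CTRL A and highest in YFP-CTRL C among the controls, whereas Sox4 and Nr2f2 were highest in A and lowest in C. The proliferation score had its lowest value in A and its highest in C. Its part in these differences was not tested beyond the covariate fit and the comparison with YFP-CTRL C alone, which are not separate checks. In bulk RNA, fewer cells that express a factor and less of its RNA per cell cannot be told apart.

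**Figure D3:**
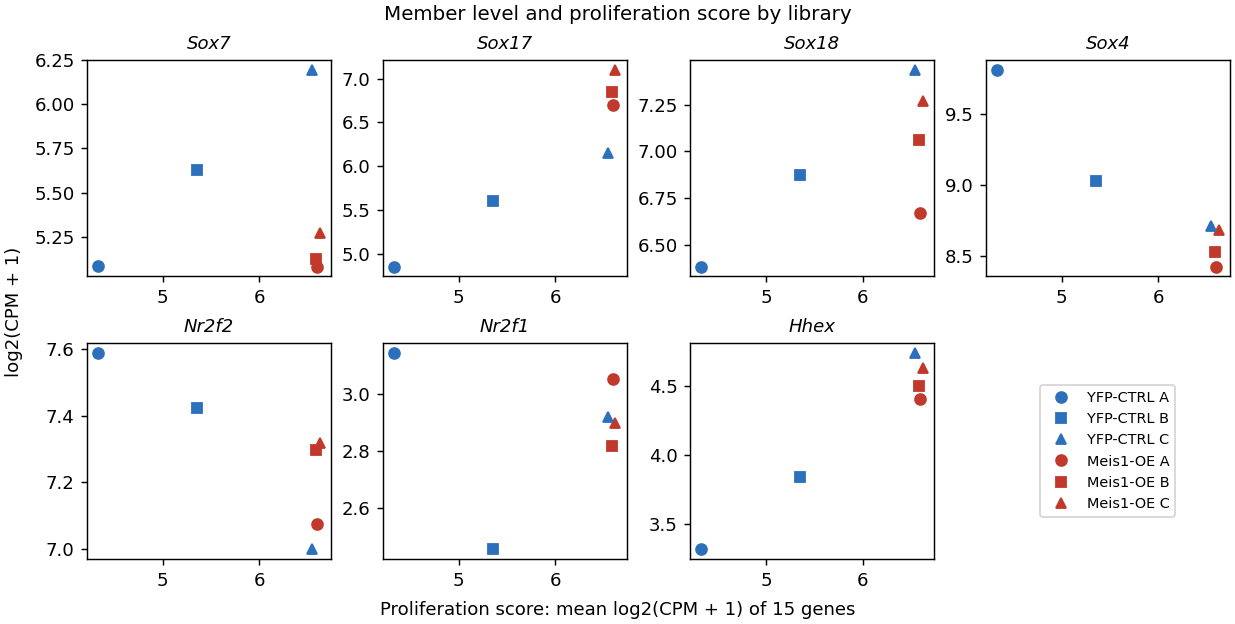
Level of each tested factor as log2(CPM + 1) against the proliferation score of the library, the mean log2(CPM + 1) of 15 genes, with YFP-CTRL in blue, Meis1-OE in red and marker shapes for the letters. At scores between 6.54 and 6.62, where YFP-CTRL C and the 3 Meis1-OE libraries lie, Sox17 was lowest and Sox7 highest in YFP-CTRL C.

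**Figure D4:**
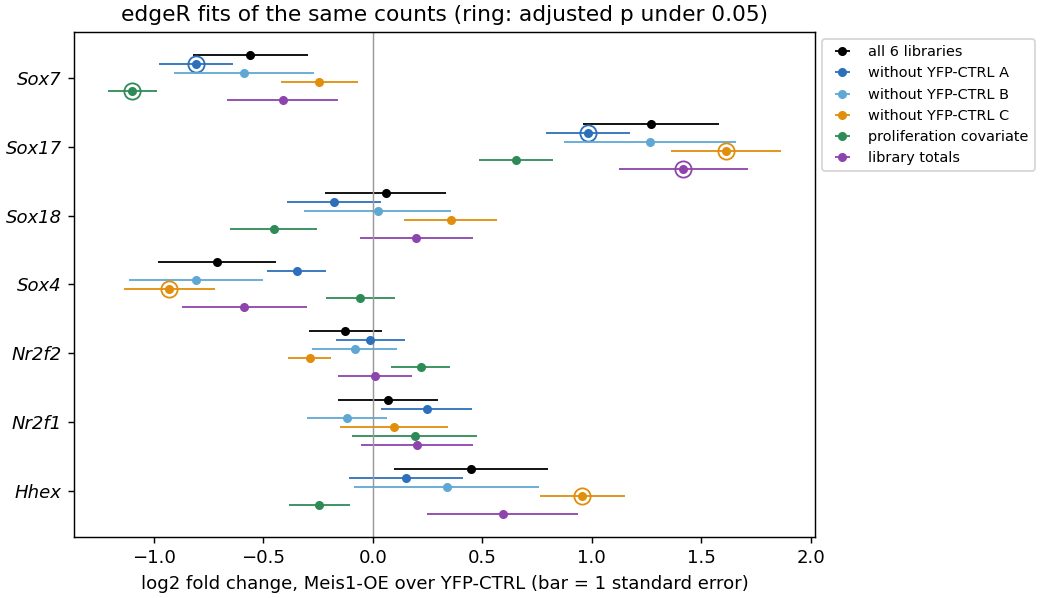
log2 fold change of each tested factor in 6 edgeR fits of the same counts, with bars of 1 standard error and a ring where the adjusted p was under 0.05. Sox17 was above 0 and Sox7 and Sox4 were below 0 in each of the 6 fits, while Sox18, Nr2f2, Nr2f1 and Hhex had both signs.

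Genes around these factors were taken from lists chosen with earlier results of these data known, and they are described by counts. Of 13 tested genes of the arterial programme linked to SoxF and Notch, 3 were higher and 0 were lower at an adjusted p of 0.05, where 4.14% of all tested genes were higher and 2.73% lower. The list median was 0.03. Gja5 and Gja4, connexins of arterial endothelium, rose by log2 fold changes of 5.66 and 5.14 (edgeR adjusted p = 0.00386 and 0.00747). Gja5 was counted 2932, 3941 and 4497 times in Meis1-OE EC and 18, 53 and 135 times in YFP-CTRL EC, with no overlap. Hey1, a target of Notch signalling, was low in both groups and rose, its level being 0.367 ± 0.0947 CPM without and 0.917 ± 0.0744 CPM with the Meis1 vector (SD, n = 3 each, edgeR adjusted p = 0.0457). Hey1 did not pass without YFP-CTRL B (edgeR adjusted p = 0.148) or without Meis1-OE A, B or C (0.141, 0.189 and 0.192), nor after adjustment for the score (0.0638), against YFP-CTRL C alone (0.0586) or with no filter (0.0604), and Gja4 was at 0.0515 without YFP-CTRL B. Dll4, the Notch ligand of arterial cells, had the most negative value of the list at -0.89 (edgeR adjusted p = 0.226). Without YFP-CTRL C it was at -0.40 (edgeR adjusted p = 0.417) and without YFP-CTRL B at -0.90 (0.392). Without YFP-CTRL A it was at -1.26 (edgeR adjusted p = 0.0303), adjusted for the score at -1.71 (edgeR adjusted p = 0.00745) and against YFP-CTRL C alone at -1.55. Notch1, named after its value was seen, was at -0.68 (edgeR adjusted p = 0.0621, DESeq2 adjusted p = 0.0176). Without YFP-CTRL A, 5 arterial genes were called, 3 higher and 2 lower (6.36% of all tested genes). Leaving out YFP-CTRL C also gave 3 higher and 2 lower (31.7%), and leaving out YFP-CTRL B gave 1 higher (1.64%). With the score as covariate, 2 were higher and 2 lower (4.15%).

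Of 10 vein genes, all tested, 1 was higher and 2 were lower, where 4.14% and 2.73% of all tested genes were. The list median was -0.04, with 5 positive and 5 negative values. Ephb4 and Nrp2, named after their values were seen, belong to the venous score of the paper. They were at 0.56 and 0.37 (edgeR adjusted p = 0.212 and 0.246). Ephb4 passed without YFP-CTRL C (edgeR adjusted p = 0.00628, where 31.7% of all tested genes passed). Nt5e, which encodes CD73, fell by 2.96 on the log2 scale (edgeR adjusted p = 0.0116), from 6.95, 6.40 and 2.75 CPM in YFP-CTRL EC to 0.897, 0.463 and 0.691 CPM in Meis1-OE EC. Tek, which encodes the angiopoietin receptor Tie2, fell by 0.78 on the log2 scale (edgeR adjusted p = 0.0351). Vwf, the von Willebrand factor gene, rose by 3.12 (edgeR adjusted p = 0.0120), from 8.13, 6.23 and 7.39 CPM to 24.3, 77.6 and 87.1 CPM. Each of the 3 lost its call without YFP-CTRL B and without Meis1-OE B or C (adjusted p from 0.0555 to 0.173), and Tek also without Meis1-OE A (0.124). Without YFP-CTRL B, Meis1-OE B or Meis1-OE C, 0 vein genes were called. Against YFP-CTRL C alone, Vwf was at 0.0544, and adjusted for the score at 0.0513.

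Of 10 lymphatic genes, 5 were tested, with a median of 0.05. Of these, 1 was higher and 1 lower, where 4.14% and 2.73% of all tested genes were. Pdpn, Reln, Ccl21a, Mmrn1 and Tbx1 had at most 4 counts in any library. Vegfc, the ligand of the lymphatic receptor VEGFR3, rose by 3.19 (edgeR adjusted p = 0.00548). The paper used Vegfc in its arterial score, whereas the list here counts it as lymphatic. Lyve1, a hyaluronan receptor of lymphatic endothelium and of some macrophages and embryonic vessels, fell by 1.84 on the log2 scale (edgeR adjusted p = 0.0301). Its level was 76.1, 77.9 and 84.1 CPM in Meis1-OE EC and 230, 461 and 161 CPM in YFP-CTRL EC, with Prox1 at or below the floor in the same libraries. Without Meis1-OE A, B or C, Lyve1 did not pass (edgeR adjusted p = 0.121, 0.149 and 0.131), nor after adjustment for the proliferation score (0.135).

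Among 14 factors that act upstream of these genes or beside them, 13 were tested, with a median of 0.14. Of these, 2 were higher and 0 were lower, where 4.14% and 2.73% of all tested genes were. Lmo2, a bridging factor of hematopoietic and endothelial complexes, rose from 6.83, 6.72 and 10.3 CPM in YFP-CTRL EC to 20.9, 28.2 and 35.6 CPM in Meis1-OE EC, a log2 fold change of 1.83 (edgeR adjusted p = 0.0107). It was at 0.0570 without YFP-CTRL B and at 0.0625 and 0.0543 without Meis1-OE B and C. Mef2c, a MADS box factor of endothelium and muscle, rose by 0.85 (edgeR adjusted p = 0.0462) and did not pass without YFP-CTRL A (0.0563) or B (0.153) or without any Meis1-OE library (up to 0.203), nor after adjustment for the score (0.49, adjusted p = 0.107). Ets2, an ETS family factor, had the most negative value at -0.90 (edgeR adjusted p = 0.0744), and it passed without YFP-CTRL A (0.0208) and after adjustment for the score (0.0156), but not without any other single library (0.0541 to 0.258). The count of called genes of this list was 7 without YFP-CTRL C, where 31.7% of all tested genes passed, and 0 without YFP-CTRL B (1.64%) or Meis1-OE B (0.798%) or C (0.875%).

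**Figure D5:**
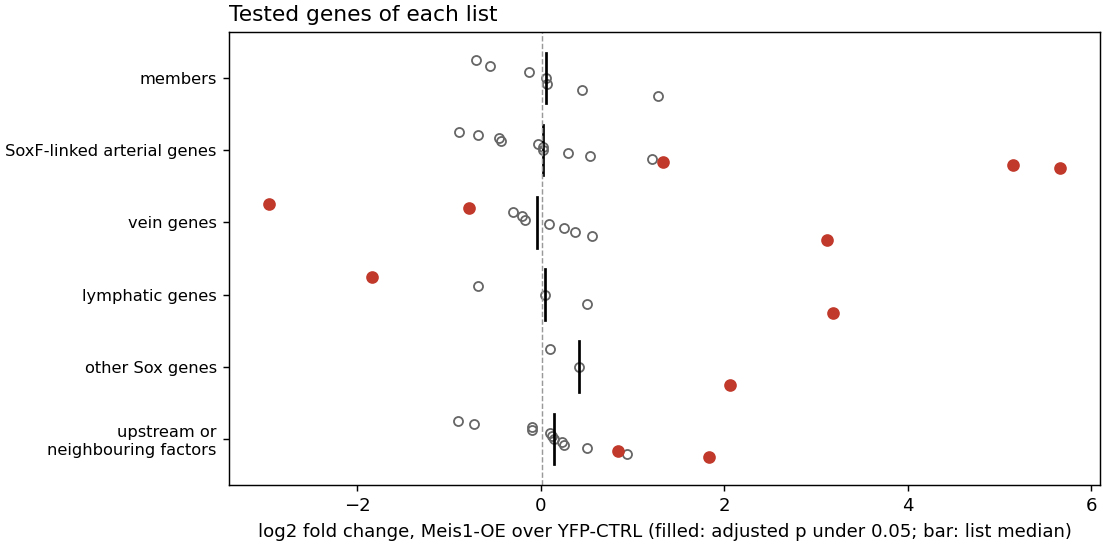
log2 fold change of every tested gene of the 8 factors and of the 5 surrounding lists, with filled points for an adjusted p under 0.05, open points for the rest, a bar at each list median and a dashed line at the median of all tested genes. The medians lay between -0.04 and 0.41, and the largest values were those of Gja5 and Gja4.

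The genes whose pattern over the 6 libraries was most like each factor were found by the root mean square difference of log2(CPM + 1), each gene centred on its own mean, among 10221 tested genes. For Sox17 these were Fat4, Siae and Chn2, with differences of 0.0722, 0.112 and 0.114. For Sox7 they included Ctsh and Sema6d (0.104 and 0.107), and for Sox4 they were Impact, B3galnt2 and Sssca1 (0.0949, 0.0966 and 0.0981). Sox18 was nearest to Nrros, Gimap5 and A630072M18Rik (0.0826, 0.0998 and 0.103), and Hhex to Cenpt, Fam111a and BC030867 (0.0591, 0.0655 and 0.0679). Nr2f2 was nearest to Laptm4a, Ifi35 and Atp2b1 (0.0315, 0.0332 and 0.0337), and Nr2f1 to Dedd2, Pank4 and Lmnb2 (0.0344, 0.0658 and 0.0667).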

How the data were processed

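Ribodepleted RNA-seq was obtained from 3 Meis1-OE and 3 YFP-CTRL libraries, described as independent replicates. The authors deposited estimated counts per gene, not normalized, listed by symbol, and the submitters' processing notes name build mm10. The aligner, the counting tool and the annotation are not given in the sources used here. All 6 columns were used, grouped by vector name. The labels number the replicates and the columns carry letters, so the libraries were not paired.

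Counts were rounded to whole numbers and analysed for the whole table in R 4.3.3 with edgeR 4.0.16 (TMM, filterByExpr, quasi-likelihood test, Benjamini-Hochberg adjustment). Standard errors came from the F statistic. The study used DESeq2, which served as an alternative (version 1.42.0). The edgeR and DESeq2 steps were tested on simulated data. The genes, lists and tests were chosen with earlier results of these data known. Named genes were the 8 factors, Meis1, Pecam1, Cdh5, Mki67, list genes past the threshold, the extreme values of each list and the 3 nearest patterns per factor among tested genes of at least 5 CPM, with exceptions named as such, and 1 of these genes is not reported here. Exon lengths came from GENCODE vM1 (build NCBIM37), which may differ from the transcripts counted. Gene positions and promoter windows came from RefSeq (GRCm38.p6). Python 3.11.15 with matplotlib 3.10.9 gave the figures. The alternatives were other scalings, filters and thresholds, a robust fit, DESeq2, a proliferation covariate, a block on the column letter and each library left out. The comparison with YFP-CTRL C alone and the SoxF shares were chosen after seeing the data.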

Additional observations from a re-analysis of the deposited data

How the results depend on the processing

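Each of the 7 tested factors had 183 or more counts in every library, and Prox1 was at the limit of depth. The count of called factors, 0 in the main analysis, was 1 on library totals, with no filter, with DESeq2, at an adjusted p under 0.1 (Sox17 each time) and with the proliferation covariate (Sox7), 2 against YFP-CTRL C alone, and 0 to 3 with single libraries left out. Over all 15 alternatives the log2 fold change of Sox17 ran from 0.66 to 1.61 and that of Sox7 from -1.10 to -0.24. Sox18 was reversed to -0.45 with the covariate, -0.41 against YFP-CTRL C alone, -0.18 without YFP-CTRL A and -0.08 without Meis1-OE C, with 0.36 without YFP-CTRL C as the highest value of a library left out. Nr2f1 was at -0.12 without YFP-CTRL B and -0.01 without Meis1-OE A, and at most 0.25 without YFP-CTRL A. Nr2f2 was at 0.0104 on library totals, 0.22 with the covariate and 0.24 against YFP-CTRL C alone, and Hhex at -0.24 and -0.23 in the last 2 fits. Pecam1 was at 0.03 on library totals and without YFP-CTRL B (0.0333 and 0.0310), and at -0.28 without YFP-CTRL A, and Mki67 at -0.0011 with the covariate. Mki67 is among the 15 genes of that score, so the adjustment removes most of its difference by construction. The cause of the other moves was not tested.

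Of all tested genes, 1103 were called in the main analysis, 2243 with DESeq2, 667 with the covariate, 1885 against YFP-CTRL C alone, 2211 at an adjusted p under 0.1 and 131 to 5215 with single libraries left out. On library totals the higher and lower calls were 1048 and 180, against 665 and 438. Of the surrounding lists together, 11 genes were called, and 3 to 20 with single libraries left out. The arterial count of 3, all higher, was 1 to 5 with single libraries left out, and 2 of the 5 were lower without YFP-CTRL A or C. The vein count ran from 0 to 4, the lymphatic from 1 to 3, that of other Sox genes from 0 to 1 and that of upstream factors from 0 to 7 with single libraries left out. Other Sox genes were 2 with no filter and with DESeq2. Upstream factors were 4 with DESeq2, against YFP-CTRL C alone and at an adjusted p under 0.1. Divided by exon length, the Sox17 share differed by 15.3 and the Sox7 share by -6.05 percentage points, and with single libraries left out these differences ran from 19.5 to 21.1 and from -11.1 to -9.92 on the counts.

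Deviations of same-letter libraries from their group means had correlations of 0.245, 0.190 and 0.0809. Among unlike letters only Meis1-OE C with YFP-CTRL B was positive (0.249), and the lowest value was -0.301. These values do not decide whether the letters mark pairs. The labels do not say so, and the main test was therefore unpaired. With the letter as a replicate block, 733 genes and 1 factor, Sox17 (edgeR adjusted p = 0.0305), were called. Ets2 passed under the block (0.0309) and Hey1 did not (0.0715), while no other call changed among the other factors and the genes named from the lists.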

Other observations

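Beyond the SoxF factors and Sox4, 11 other Sox genes were examined, of which 3 were tested, with a median log2 fold change of 0.41. Of these, 1 was higher and 0 were lower, where 4.14% and 2.73% of all tested genes were. Sox6 and Sox13 had log2 fold changes of 0.41 and 0.10 and did not pass. Sox9, a SoxE factor known from cartilage and from endothelial to mesenchymal transition, was counted 218, 167 and 147 times in Meis1-OE EC and 34, 29 and 48 times in YFP-CTRL EC. The groups did not overlap. Sox9 rose by 2.07 on the log2 scale (edgeR adjusted p = 0.00904), and without Meis1-OE B the adjusted p was 0.0556. Its mean was 3.87 ± 0.815 CPM with Meis1-OE (SD, n = 3).

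Sox5, a SoxD factor named after its values were seen, had 11, 6 and 8 counts in Meis1-OE EC and 0 in each YFP-CTRL library. With 3 counts allowed over the whole control group, the ratio is 7.29-fold, without the counting error of the 25 Meis1-OE counts. A floor of 3 counts per library, as used for Prox1, would give a smaller ratio. Sox5 did not pass the filter on low counts, and with no filter its adjusted p was 0.0341 from edgeR. Sox12 and Sox11, the SoxC relatives of Sox4, had 0 counts in every library, which allows up to 3 counts each.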
